A study of Mus musculus with 42 samples.

Results

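MHC class I antigen presentation was followed through 10 genes, out of 55487 gene identifiers in each deposited table. They were taken by name after matching mouse Ensembl identifiers to symbols, by a rule that uses no measured value. The set holds the heavy chain genes H2-K1 and H2-D1, the light chain gene B2m, the peptide transporter genes Tap1 and Tap2, the loading factor gene Tapbp, the immunoproteasome genes Psmb8, Psmb9 and Psmb10, and the transactivator gene Nlrc5. All 10 passed the filter on low counts in both kinds of library.

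The cells were green fluorescent protein (GFP)-positive MLL-AF9 acute myeloid leukaemia cells sorted from mouse bone marrow, with 1 mRNA library and 1 ribosome footprint library from each of 21 mice. Every mouse was a male of 8 to 10 weeks, labelled WT, that received the same transplanted leukaemia by vein without preconditioning. The line came from 1 terminally ill mouse and was grown in culture. Its GFP is driven by a ubiquitin control element and its luciferase by the β-actin promoter. The mice ate either a standard amino acid diet (AA) or one that lacked branched-chain amino acids (BCAA-free). The regimen 5+3 was cytarabine (100 mg/kg on each of 5 days) plus doxorubicin (3 mg/kg on the first 3 of them), injected into the peritoneum, and vehicle was PBS. The groups were AA vehicle (5 mice), AA 5+3 (4), BCAA-free vehicle (5) and BCAA-free 5+3 (7), and the cells were taken when the response to chemotherapy was greatest. Replicate numbers name mice within a group.

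Class I molecules show peptides from inside the cell to CD8 T cells and are read by natural killer cells. Proteasomes cut proteins into peptides, and in cells exposed to interferon the subunits encoded by Psmb8, Psmb9 and Psmb10 replace the constitutive catalytic subunits encoded by Psmb5, Psmb6 and Psmb7. The TAP transporter carries peptides into the endoplasmic reticulum, tapasin (the product of Tapbp) holds it next to the empty heavy chain, and the finished complex of heavy chain, β2-microglobulin and peptide moves to the surface. Interferon acts on these genes through IRF and STAT factors at elements called ISRE and GAS, and NLRC5 joins RFX, CREB/ATF and NF-Y proteins on class I promoters.

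Promoters of 8 of the 10 genes were matched in RefSeq (build GRCm38.p6), each running from 250 bases before to 50 after a transcript start. Tap2 and Nlrc5 were not matched. Those of H2-K1, H2-D1 and B2m are shown because these genes fell together in the footprints below, and that of Tap1 because it overlaps the promoter of Psmb9. Capitals mark matches, on either strand, to 4 motifs. The ISRE-like motif was GAAA or GAA, any 2 bases and GAAA, and the kappaB-like motif was GGG, any 2 bases, T, any 2 bases and CC. The others were TGACG (the core of CREB/ATF sites) and CCAAT (bound by NF-Y). The motifs were chosen after these promoters had been read. Adjoining capitals are overlapping matches, since the kappaB-like motif can match itself on both strands.
H2-K1, chr17:34000284-34000583, minus strand: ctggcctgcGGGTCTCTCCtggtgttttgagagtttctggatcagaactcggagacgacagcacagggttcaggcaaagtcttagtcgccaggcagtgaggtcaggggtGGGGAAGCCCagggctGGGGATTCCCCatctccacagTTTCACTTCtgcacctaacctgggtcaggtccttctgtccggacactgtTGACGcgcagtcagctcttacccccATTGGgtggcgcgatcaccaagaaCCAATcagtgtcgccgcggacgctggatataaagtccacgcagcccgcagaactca
H2-D1, chr17:35262844-35263143, plus strand: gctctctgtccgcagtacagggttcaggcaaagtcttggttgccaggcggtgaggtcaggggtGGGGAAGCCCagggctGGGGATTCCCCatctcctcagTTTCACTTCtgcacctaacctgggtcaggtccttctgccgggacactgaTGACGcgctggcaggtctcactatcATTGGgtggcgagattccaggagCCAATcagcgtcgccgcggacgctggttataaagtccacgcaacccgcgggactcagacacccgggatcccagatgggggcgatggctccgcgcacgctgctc
B2m, chr2:122147437-122147736, plus strand: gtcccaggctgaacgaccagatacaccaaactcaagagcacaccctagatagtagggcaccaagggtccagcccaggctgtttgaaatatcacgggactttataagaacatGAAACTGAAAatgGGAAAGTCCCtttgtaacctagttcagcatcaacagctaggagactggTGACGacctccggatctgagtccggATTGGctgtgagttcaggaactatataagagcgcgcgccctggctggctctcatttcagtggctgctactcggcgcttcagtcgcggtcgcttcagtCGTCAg
Tap1, chr17:34187306-34187605, plus strand: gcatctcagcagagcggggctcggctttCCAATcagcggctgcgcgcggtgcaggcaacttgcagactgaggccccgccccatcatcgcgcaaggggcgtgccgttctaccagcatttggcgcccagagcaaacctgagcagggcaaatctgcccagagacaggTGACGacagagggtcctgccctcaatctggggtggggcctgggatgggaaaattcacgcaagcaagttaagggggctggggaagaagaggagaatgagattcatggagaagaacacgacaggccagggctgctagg

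H2-K1, H2-D1 and B2m each held all 4 motifs. Counting theirs, 34 of 32851 RefSeq mouse promoters of this length did (0.103%). Because the motifs were chosen after these promoters had been read, this share is not a test. Those 34 belonged to 31 genes, which also included H2-M3, H2-Q4, H2-Q7 and H2-T22. One at a time the motifs were common: 10.4% of all promoters held the ISRE-like motif, 18.4% the kappaB-like motif, 20.8% TGACG and 37.4% CCAAT. In H2-K1 the ISRE-like match began 104 bases before the start, in H2-D1 150 bases and in B2m 139 bases. H2-K1 and H2-D1 shared an unbroken run of 47 bases over their kappaB-like matches. RefSeq lists another start of H2-K1 nearby, whose window also held all 4. Tap1 and Psmb9 lie 225 bases apart and point away from each other, and the same TGACG and CCAAT matches lie in both windows. Tapbp held CCAAT only, and Psmb8 and Psmb10 held none of the 4. A match describes letters in this window and does not show that a protein binds there.

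**Figure D1:**
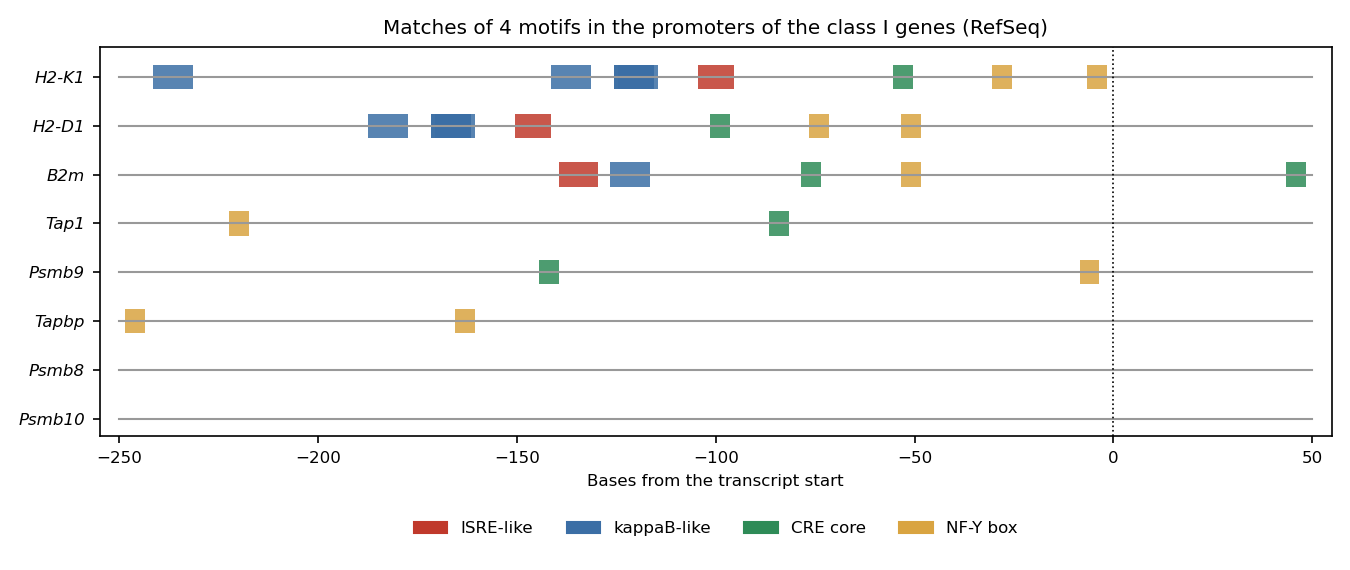
Positions of the motif matches in the 8 matched promoters, in bases from the transcript start (dotted line). H2-K1, H2-D1 and B2m carry all 4 motifs, Tap1 and Psmb9 carry TGACG (CRE core) and CCAAT (NF-Y box), and Psmb8 and Psmb10 carry none.

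In RefSeq's annotation of the same build, Psmb9 (chr17:34182030-34187330), Tap1 (chr17:34187556-34197225), Psmb8 (chr17:34198195-34201454) and Tap2 (chr17:34204479-34216321) are consecutive genes, with Tapbp (chr17:33919478-33929290), H2-K1 (chr17:33996012-34000619) and H2-D1 (chr17:35263094-35267497) on the same chromosome. B2m lies on chromosome 2 (chr2:122147687-122153082), and Nlrc5 (chr8:94434335-94527272) and Psmb10 (chr8:105935728-105938392) on chromosome 8.

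Libraries held 30996200 to 70437713 counts in mRNA and 2697092 to 8863472 in footprints. A set of 4 mice stood apart on the first principal component of the mRNA libraries: BCAA-free vehicle replicates 1, 2 and 5 and BCAA-free 5+3 replicate 7. On the first component of the footprint libraries these 4 mice did not stand apart. The BCAA-free vehicle replicates 1, 2 and 5 were at -6.33, 1.05 and -23.24 there, beside 9.73 and -12.29 for replicates 3 and 4. BCAA-free 5+3 replicate 7 was at 38.64, inside the range of its group (24.51 to 48.23). AA vehicle replicates 1 and 2 were at -48.04 and -58.39 there, beside 6.42, -9.2 and -8.55 for the other AA vehicle mice. Their footprint libraries had the fewest counts (2697092 and 2799639). Results without the 4 mice are given below for both kinds of library, and leaving them out leaves 2 mice in the BCAA-free vehicle group. Mouse names in the AA vehicle group alone carry a suffix B that the labels do not explain, and if it marks a batch, batch and group cannot be told apart. Levels are given as CPM, counts scaled to each library's effective size, and are comparable between libraries of 1 kind and not between genes, since gene lengths were not used. Of the leukaemia genes, Hoxa9 footprints were between 28.4 and 43.2 CPM and Meis1 footprints between 34.7 and 47.2 CPM in the BCAA-free 5+3 mice. The 6 leukaemia markers, Hoxa9 and Meis1 among them, summed to 471.1 to 522.4 CPM of footprints in BCAA-free vehicle and 356.2 to 490.9 in BCAA-free 5+3. On the AA diet the sums were 441.9 to 531.8 CPM in vehicle and 380.2 to 421 in 5+3, without overlap. In sorted bulk samples, fewer cells of a type and less RNA per cell cannot be told apart.

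On the BCAA-free diet the footprints of 9 of the 10 genes fell after chemotherapy (adjusted p under 0.05 in edgeR), where 11.9% of the 15723 genes tested fell. Under 5+3, the BCAA-free diet went with lower footprints of 8 of the 10 than the AA diet, where 15.8% of all genes were lower. Tap2 was outside both counts and Psmb8 outside the second. In mRNA the counts were 5 of 10 (4.23% of 21114 genes fell) and 2 of 10 (0.682% were lower). The median footprint change over the 10 genes was -1.04 on the log2 scale for chemotherapy on the BCAA-free diet, beside -0.02 over all genes, and -1.05 for the diet under 5+3, beside 0.00. The 2 comparisons share the BCAA-free 5+3 mice. Changes between the diets are given as BCAA-free relative to AA, and changes of genes are on the log2 scale unless a fold is named.

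**Figure D2:**
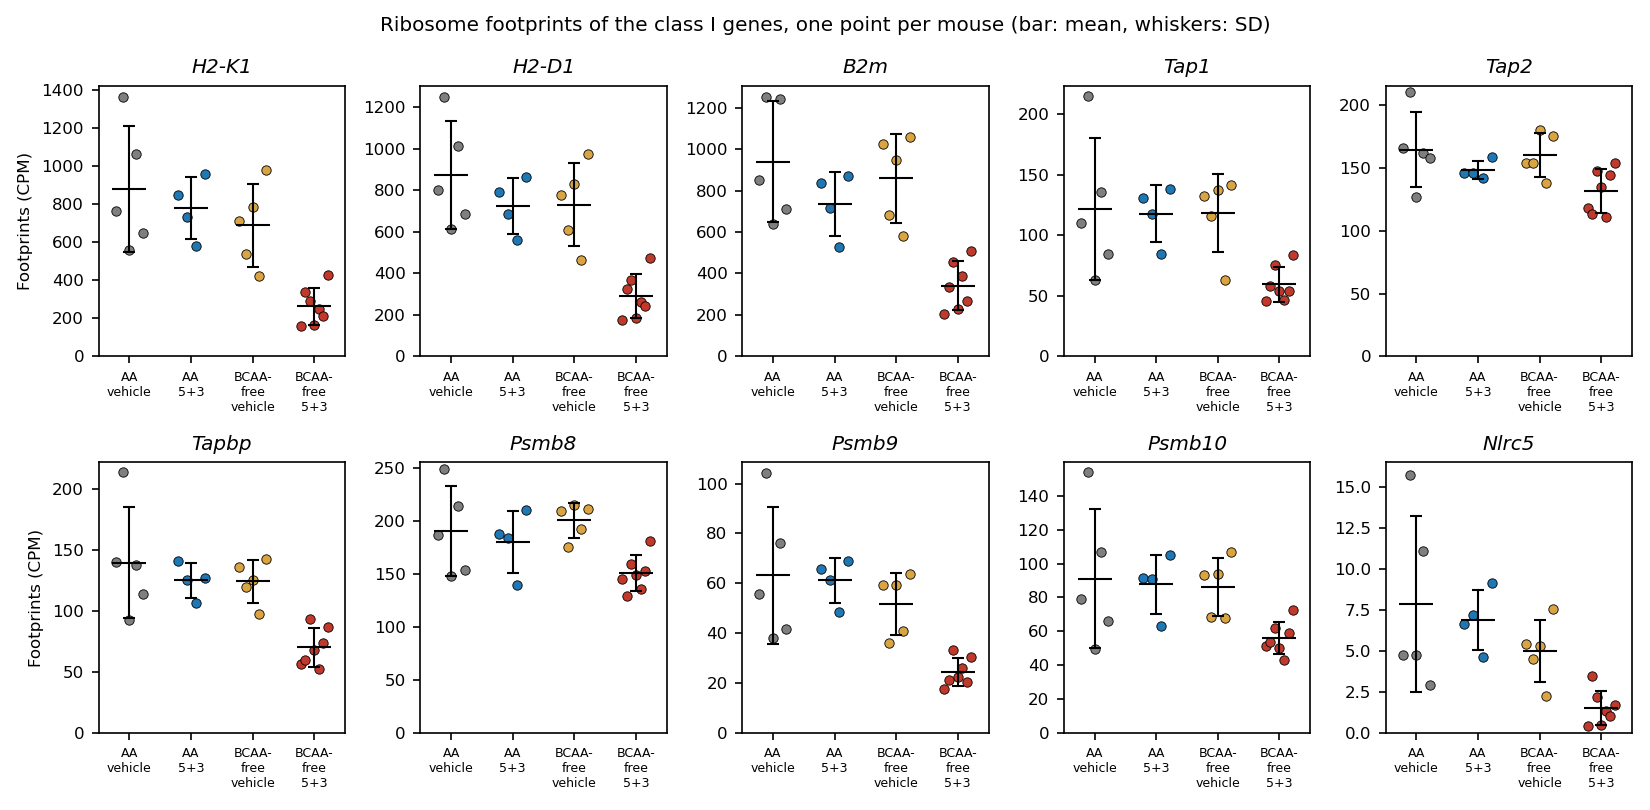
Footprint CPM (vertical axis from 0) of each gene in every mouse by group, with group mean and SD. H2-K1 in the 7 BCAA-free 5+3 mice lies at 157 to 429.6 CPM, below all 4 AA 5+3 mice (579.7 to 958 CPM), while Tap2 overlaps between all groups.

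H2-K1 and H2-D1 encode the classical heavy chains, which hold the peptide. H2-K1 footprints were 709.7, 540.4, 787, 423 and 983 CPM in the BCAA-free vehicle mice and 157 at the lowest, 247 at the median and 429.6 at the highest in the BCAA-free 5+3 mice. They were 766, 1363, 562, 1066 and 646.5 CPM in the AA vehicle mice and 850.1, 733, 579.7 and 958 CPM in the AA 5+3 mice. Every BCAA-free 5+3 mouse was below every AA 5+3 mouse, and 1 of them (replicate 7, at 429.6 CPM) was just above the lowest BCAA-free vehicle mouse. H2-K1 was 2.62-fold lower after chemotherapy on the BCAA-free diet (log2 change -1.39 ± 0.28 SE, adjusted p = 0.00244) and 2.97-fold lower on that diet than on the AA diet under 5+3 (log2 change -1.57 ± 0.29 SE, adjusted p = 0.00079). Ordered by group mean, H2-K1 footprints ran from 881 ± 330.5 CPM (SD, n = 5) in AA vehicle through 780.4 ± 162 (n = 4) in AA 5+3 and 689 ± 218 (n = 5) in BCAA-free vehicle to 263 ± 98.5 (n = 7) in BCAA-free 5+3. Neither chemotherapy on the AA diet nor the diet in vehicle changed H2-K1 past the threshold (-0.17 and -0.35), and AA 5+3 and BCAA-free vehicle mice, which were not compared by a test, overlapped.

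H2-D1 had footprints of 776, 609, 832, 463 and 976 CPM in the BCAA-free vehicle mice and 177 at the lowest, 263 at the median and 472 at the highest in the BCAA-free 5+3 mice. In the AA 5+3 mice they were 790.0, 684, 559 and 866 CPM, and in the AA vehicle mice 802, 1249, 612.5, 1015 and 687 CPM. The AA 5+3 mice were all above the BCAA-free 5+3 mice, whose highest mouse again was replicate 7, just above the lowest BCAA-free vehicle mouse. H2-D1 fell after chemotherapy on the BCAA-free diet (log2 change -1.33 ± 0.25 SE, adjusted p = 0.00135) and was lower on that diet under 5+3 (log2 change -1.32 ± 0.26 SE, adjusted p = 0.00114).

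B2m encodes the light chain shared by all class I molecules. Its footprints were 1028, 683, 949, 580.3 and 1061 CPM in the BCAA-free vehicle mice and 202 at the lowest, 336 at the median and 511 at the highest in the BCAA-free 5+3 mice. They were 835, 714, 528.5 and 869.9 CPM in the AA 5+3 mice and 852, 1254, 641, 1246 and 711 CPM in the AA vehicle mice. No BCAA-free 5+3 mouse reached the lowest mouse of any other group. B2m fell after chemotherapy on the BCAA-free diet (log2 change -1.33 ± 0.24 SE, adjusted p = 0.00129) and was lower on that diet under 5+3 (log2 change -1.11 ± 0.26 SE, adjusted p = 0.00373).

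In mRNA, H2-K1 was the only gene of the 3 chains that passed. Its mRNA was 1505, 1004, 1548, 921 and 2245 CPM in the BCAA-free vehicle mice and 282 at the lowest, 545 at the median and 732 at the highest in the BCAA-free 5+3 mice, and 1250, 1174, 935 and 1657 CPM in the AA 5+3 mice. The BCAA-free 5+3 mice lay below both other groups without overlap. H2-K1 mRNA fell after chemotherapy on the BCAA-free diet (log2 change -1.49 ± 0.29 SE, adjusted p = 0.00765) and was lower on that diet under 5+3 (log2 change -1.29 ± 0.31 SE, adjusted p = 0.0351). The second call was lost in 8 of the 11 fits that left out 1 mouse (adjusted p up to 0.154). H2-D1 mRNA missed the threshold in both comparisons (-0.82, adjusted p = 0.0633, and -0.83, adjusted p = 0.196). B2m mRNA also missed it (-0.80, adjusted p = 0.182, and -1.34, adjusted p = 0.116), and its groups held single high mice, AA 5+3 replicate 4 at 4653 CPM and BCAA-free 5+3 replicate 7 at 1705 CPM. DESeq2 called the first of these H2-D1 changes (-0.85, adjusted p = 0.0202) and the second of these B2m changes (-1.36, adjusted p = 0.0267).

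**Figure D3:**
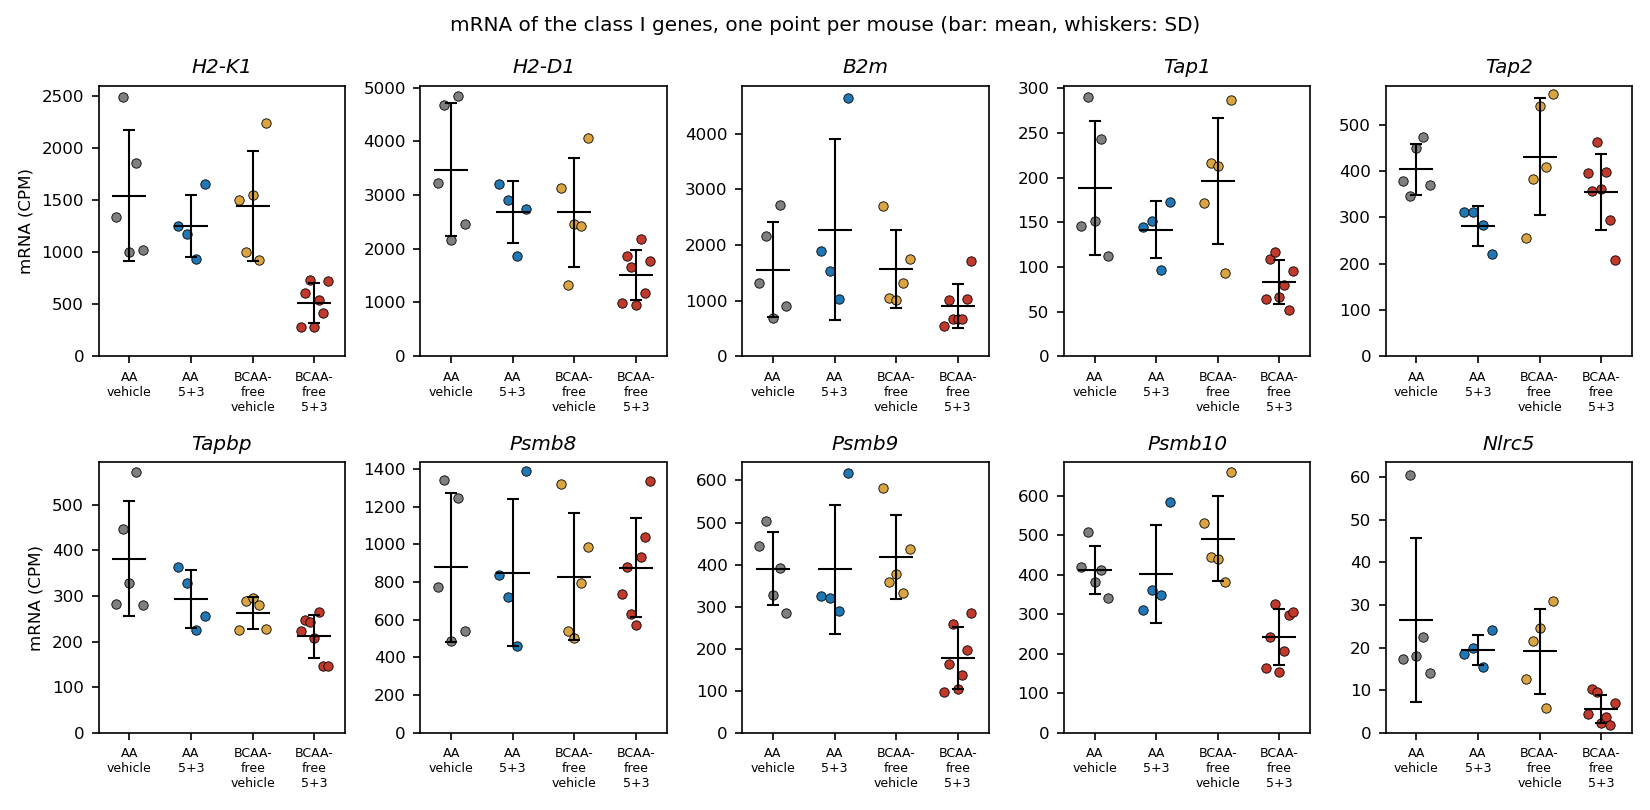
mRNA CPM (vertical axis from 0) of each gene in every mouse by group, with group mean and SD. H2-K1 in the BCAA-free 5+3 mice lies at 282 to 732 CPM, below the BCAA-free vehicle mice at 921 to 2245 CPM, while Psmb8 overlaps between all groups.

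Reads of class I heavy chains can be shared between near-identical genes. H2-D1 and H2-K1 held 64.7% and 29.3% of the mean CPM of all class I heavy chain genes in mRNA, and 21.4% and 21.2% in footprints. H2-Bl averaged 3.9 counts in an mRNA library and 425.4 in a footprint library, and H2-Q2 averaged 8.9 and 565.2. The footprint value of any single heavy chain gene is therefore uncertain. Summed to 1 feature, 30 heavy chain genes fell in footprints after chemotherapy on the BCAA-free diet (log2 change -1.36, adjusted p = 0.00158) and were lower on that diet under 5+3 (-1.43, adjusted p = 0.000878). H2-K2, which held 4.52% of the footprint CPM of all class I heavy chain genes, was not in this sum. In mRNA the sum fell after chemotherapy (-1.04, adjusted p = 0.0268) and missed the threshold between the diets (-0.97, adjusted p = 0.113). Of the 16 other heavy chain genes tested in footprints, 15 fell after chemotherapy on the BCAA-free diet, beside 11.9% of all genes. Between the diets under 5+3, 14 were lower, beside 15.8% of all genes. These genes can share footprint reads with each other and with H2-K1 and H2-D1. Both counts are therefore not of separate genes, and the shares over all genes are not a like measure. The heavy chain genes lower in both included H2-T24 (-1.16 and -1.62) and H2-Q10 (-1.38 and -1.43), and the list median was -1.38 and -1.48. H2-Q10 averaged 48 counts in an mRNA library and 544.3 in a footprint library. Without the 4 mice that stood apart in mRNA, 5 and 14 of the 16 passed. In mRNA 5 and 2 of 13 were lower (4.23% and 0.682% of all genes), among them H2-T23 (-1.29 and -1.12) and H2-Q4 (-2.08 and -1.98). These mRNA counts were 0 and 4 of 14 by edgeR without the same mice.

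Of the TAP subunits, Tap1 passed and Tap2 did not. Tap1 footprints were 132, 115.5, 138, 63.0 and 141 CPM in the BCAA-free vehicle mice and 45.3 at the lowest, 53.8 at the median and 83.2 at the highest in the BCAA-free 5+3 mice, beside 131, 117, 84.7 and 138 CPM in the AA 5+3 mice. Under 5+3 the diets did not overlap, but BCAA-free vehicle replicate 4 (63.0 CPM) lay inside the range of the treated mice. Tap1 footprints fell after chemotherapy on the BCAA-free diet (log2 change -0.99 ± 0.26 SE, adjusted p = 0.0137) and were lower on that diet under 5+3 (log2 change -0.99 ± 0.28 SE, adjusted p = 0.013). Tap1 mRNA was 172, 216, 214, 93.3 and 287 CPM in the BCAA-free vehicle mice and 51.5 at the lowest, 79.4 at the median and 117 at the highest in the BCAA-free 5+3 mice, with BCAA-free vehicle replicate 4 (93.3 CPM) again inside the treated range. Tap1 mRNA fell as well (log2 change -1.24 ± 0.27 SE, adjusted p = 0.012), and missed the threshold between the diets under 5+3 (log2 change -0.77 ± 0.28 SE, adjusted p = 0.218).

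Tap2, the partner of Tap1 in the transporter, had footprints of 154, 154, 180.3, 138 and 176 CPM in the BCAA-free vehicle mice and 111 at the lowest, 135 at the median and 154 at the highest in the BCAA-free 5+3 mice. The groups overlapped, and the change missed the threshold (log2 change -0.28 ± 0.10 SE, adjusted p = 0.0556). Leaving out BCAA-free 5+3 replicate 3 or 7 brought Tap2 just past it (adjusted p = 0.0492 and 0.0437). Its mRNA had a log2 change of -0.28 (adjusted p = 0.386), and between the diets under 5+3 its footprints were at -0.17 and its mRNA at 0.33, neither past the threshold.

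Tapbp encodes tapasin, which bridges the transporter and the heavy chain. Its footprints were 136, 119, 125.5, 97.1 and 142 CPM in the BCAA-free vehicle mice and 52.1 at the lowest, 67.6 at the median and 93.5 at the highest in the BCAA-free 5+3 mice, and 141, 125, 106.5 and 127 CPM in the AA 5+3 mice. The BCAA-free 5+3 mice lay below both groups without overlap. Tapbp footprints fell after chemotherapy (log2 change -0.83 ± 0.17 SE, adjusted p = 0.0024) and were lower on the BCAA-free diet under 5+3 (log2 change -0.84 ± 0.18 SE, adjusted p = 0.00182). Tapbp mRNA had log2 changes of -0.32 and -0.48 in the same comparisons and did not pass the test (adjusted p = 0.327 and 0.352).

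Psmb9 encodes the immunoproteasome subunit that takes the place of the Psmb6 product. Its footprints were 59.3, 36.1, 59.1, 40.7 and 63.6 CPM in the BCAA-free vehicle mice and 17.4 at the lowest, 22.5 at the median and 33.2 at the highest in the BCAA-free 5+3 mice, and 65.9, 61.3, 48.5 and 69.1 CPM in the AA 5+3 mice. The treated BCAA-free mice were below both groups without overlap, and fell 2.12-fold after chemotherapy (log2 change -1.09 ± 0.23 SE, adjusted p = 0.00336). For the diets under 5+3 the difference was 2.52-fold (log2 change -1.33 ± 0.24 SE, adjusted p = 0.000583).

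Psmb9 mRNA was 583, 359, 378, 332 and 436 CPM in the BCAA-free vehicle mice, 97.5 at the lowest, 163 at the median and 285 at the highest in the BCAA-free 5+3 mice, and 326, 321, 289.7 and 617 CPM in the AA 5+3 mice. These groups did not overlap either, and AA 5+3 replicate 4 stood above the other mice of its group. Psmb9 mRNA fell after chemotherapy on the BCAA-free diet (log2 change -1.23 ± 0.26 SE, adjusted p = 0.0113). It was lower on that diet under 5+3 (log2 change -1.13 ± 0.28 SE, adjusted p = 0.0412), a call that 9 of 11 fits without 1 mouse lost. Without AA 5+3 replicate 4 that change was -0.81 (adjusted p = 0.239).

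Psmb10 encodes the immune counterpart of the Psmb7 product. Its mRNA was 531, 445, 439, 382.5 and 659.8 CPM in the BCAA-free vehicle mice and 154 at the lowest, 242 at the median and 327 at the highest in the BCAA-free 5+3 mice, without overlap, and it fell (log2 change -1.02 ± 0.21 SE, adjusted p = 0.0108). Between the diets under 5+3 Psmb10 mRNA missed the threshold (log2 change -0.72 ± 0.23 SE, adjusted p = 0.128). Psmb10 footprints were 93.5, 68.7, 94.1, 68.0 and 107 CPM in the BCAA-free vehicle mice and 43.0 at the lowest, 54.0 at the median and 72.8 at the highest in the BCAA-free 5+3 mice. Only the highest treated mouse reached into the vehicle range. The footprints fell with a small margin (log2 change -0.63 ± 0.22 SE, adjusted p = 0.0481) and were lower under 5+3 on the BCAA-free diet (log2 change -0.66 ± 0.23 SE, adjusted p = 0.0407). These 2 calls were lost in 10 of 12 and 8 of 11 fits without 1 mouse, with median-ratio scaling in the first, and without the filter on low counts or with a replicate block in both.

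Psmb8 encodes the immune counterpart of the Psmb5 product, and its footprints fell where its mRNA gave no call. Psmb8 mRNA was 1318, 538, 502, 792 and 987 CPM in the BCAA-free vehicle mice and 569 at the lowest, 877 at the median and 1333 at the highest in the BCAA-free 5+3 mice. The groups overlapped widely (log2 change 0.08 ± 0.31 SE, adjusted p = 0.899). Its footprints were 209, 175, 215, 192 and 211 CPM in the BCAA-free vehicle mice and 129 at the lowest, 149 at the median and 181 at the highest in the BCAA-free 5+3 mice. Only the highest treated mouse overlapped the vehicle mice, and the footprints fell 1.33-fold (log2 change -0.42 ± 0.12 SE, adjusted p = 0.0131). For the diets under 5+3 they missed the threshold (log2 change -0.26 ± 0.12 SE, adjusted p = 0.114).

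**Figure D4:**
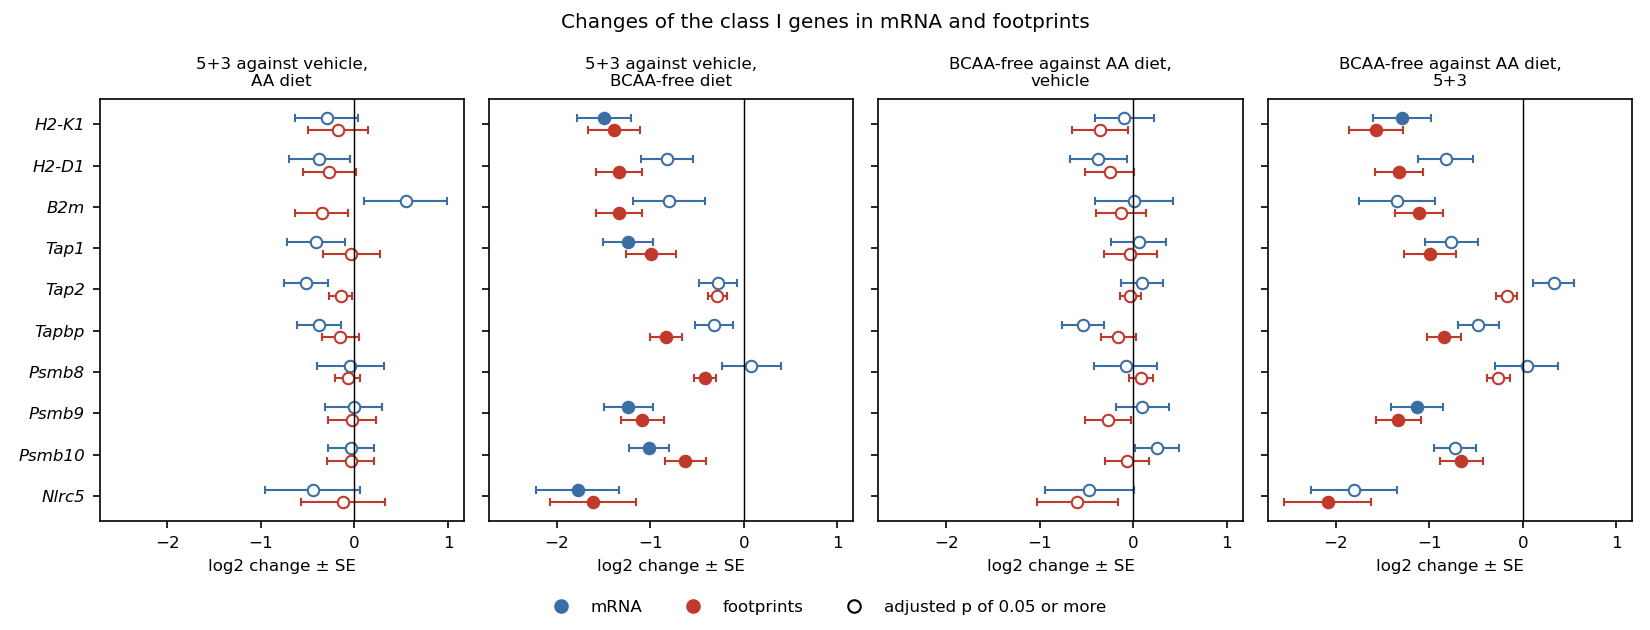
Log2 changes with standard errors of the 10 genes in mRNA (blue) and footprints (red) for 4 comparisons, with filled points past adjusted p of 0.05 in edgeR. Footprints of 9 genes fell after 5+3 on the BCAA-free diet and 8 were lower between the diets under 5+3, and none passed on the AA diet or between the diets in vehicle.

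The ratio of each immune subunit to its constitutive counterpart within a library does not depend on scaling. It was tested over mice with an exact two-sided permutation test in 24 combinations, of which 9 passed after Benjamini-Hochberg adjustment. Without the 4 mice apart 0 passed. Most of the BCAA-free vehicle mice are then left out, which raises the smallest p this test can give in comparisons with that group. The comparison of the diets under 5+3 loses 1 mouse, and chemotherapy on the AA diet loses none. All 24 p-values are adjusted together, so a call can be lost though its own groups lose no mouse. No conclusion about the ratios is therefore drawn from that 0. The Psmb9/Psmb6 ratio of mRNA counts was 0.509, 0.558, 0.898, 0.542 and 0.468 in the BCAA-free vehicle mice and at the lowest, median and highest 0.18, 0.209, 0.344 in the BCAA-free 5+3 mice. In the AA 5+3 mice it was 0.658, 0.638, 0.684 and 0.8. The treated BCAA-free mice lay below both groups, at 0.399 times the vehicle ratio (exact permutation p = 0.00252, adjusted 0.0152) and 0.333 times the AA 5+3 ratio (exact permutation p = 0.00606, adjusted 0.0242). Both are the smallest p these group sizes allow, and without any 1 of the AA 5+3 mice the second no longer passed after adjustment.

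The same ratio in footprints was 0.448 and 0.353 times the comparison group (exact permutation, adjusted p = 0.0152 and 0.0242). Psmb10/Psmb7 fell after chemotherapy on the BCAA-free diet to 0.41 times in mRNA and 0.58 times in footprints (exact permutation, adjusted p = 0.026 and 0.0152). It also fell on the AA diet in mRNA, to 0.684 times (exact permutation p = 0.0159, adjusted 0.0423). That p is the smallest these group sizes allow, and fewer mice raise this limit. The call was lost without any 1 of those 9 mice, with log2 differences between -0.595 and -0.477. Psmb10 mRNA itself had a log2 change of -0.04 after chemotherapy on the AA diet, so this ratio does not show a fall of Psmb10. For the diets under 5+3 Psmb10/Psmb7 passed in footprints (0.585 times, exact permutation, adjusted p = 0.0364) and missed in mRNA (0.661 times, adjusted p = 0.0873). The footprint call was lost in 9 of 11 fits without 1 mouse. Psmb8/Psmb5 fell after chemotherapy on the BCAA-free diet in footprints (0.663 times, exact permutation, adjusted p = 0.0152) and missed in mRNA (1.33 times, adjusted p = 0.151). Psmb5, Psmb6 and Psmb7 did not pass in edgeR in the footprints of these 2 comparisons. Psmb5 had a log2 change of 0.18 in footprints after chemotherapy on the BCAA-free diet, Psmb6 of 0.07 and Psmb7 of 0.17. On the AA diet Psmb5 footprints rose (log2 change 0.32 ± 0.09 SE, adjusted p = 0.0383), and the adjusted p was 0.0638 without the 4 mice apart.

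**Figure D5:**
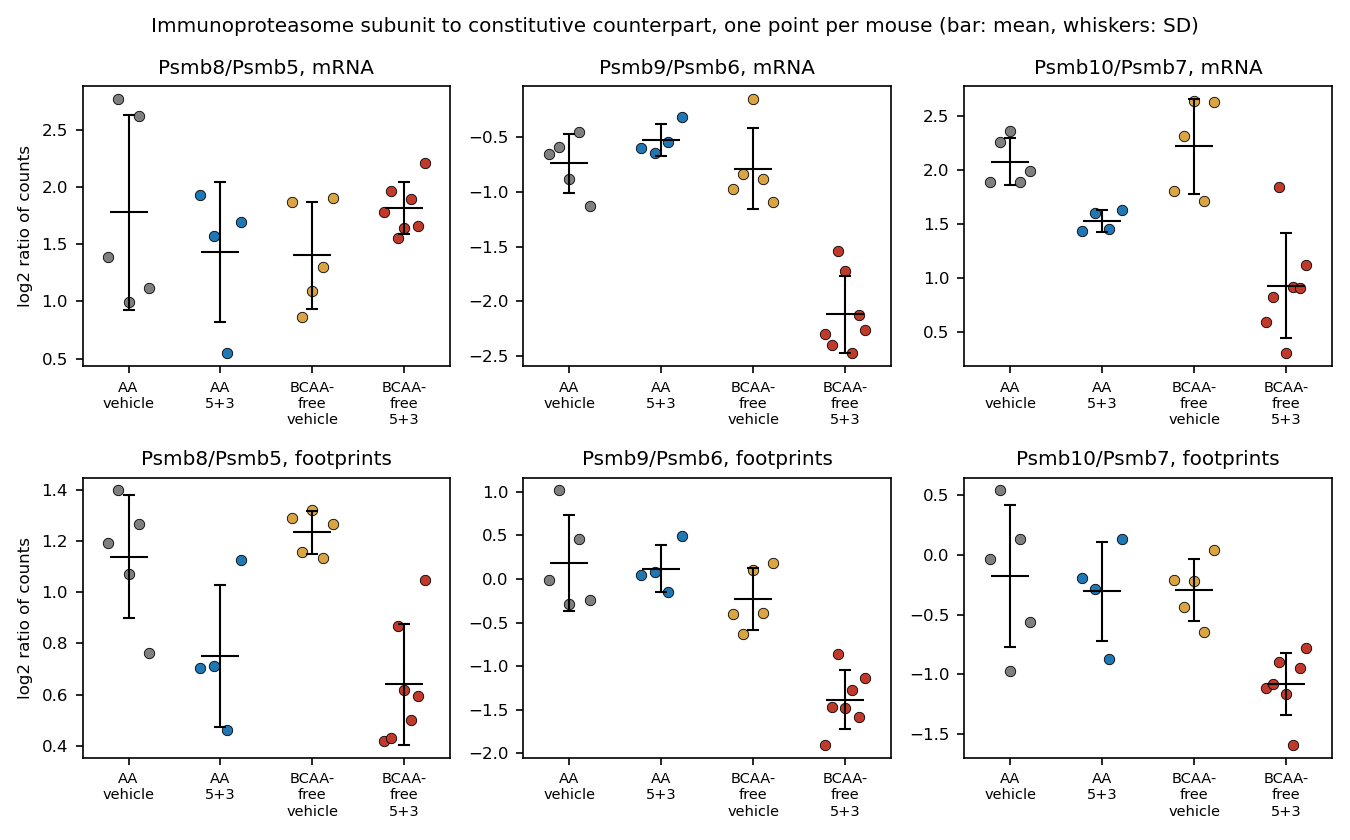
Log2 ratio of the counts of each immunoproteasome gene to its constitutive counterpart in every mouse, by group, with mean and SD (mRNA above, footprints below). Psmb9/Psmb6 in the BCAA-free 5+3 mice lies below all other groups in both kinds of library, and Psmb8/Psmb5 in mRNA overlaps between all groups.

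Nlrc5 encodes the transactivator of class I genes and had few footprints. Its footprints were 5.44, 4.51, 5.30, 2.26 and 7.52 CPM in the BCAA-free vehicle mice, 0.435 at the lowest, 1.35 at the median and 3.44 at the highest in the BCAA-free 5+3 mice, and 6.65, 7.20, 4.63 and 9.11 CPM in the AA 5+3 mice. In the BCAA-free 5+3 libraries these were 2 to 30 counts. No treated BCAA-free mouse reached the AA 5+3 mice, and replicate 2 (3.44 CPM) was above the lowest BCAA-free vehicle mouse. Nlrc5 footprints fell after chemotherapy on the BCAA-free diet (log2 change -1.61 ± 0.46 SE, adjusted p = 0.0189) and were 4.24-fold lower on that diet under 5+3 (log2 change -2.08 ± 0.46 SE, adjusted p = 0.00245). The first call was lost without BCAA-free vehicle replicate 5 (-1.42, adjusted p = 0.0616) and without the filter on low counts (-1.58, adjusted p = 0.0583).

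Nlrc5 mRNA was 12.7, 21.6, 24.5, 5.80 and 30.9 CPM in the BCAA-free vehicle mice, 1.89 at the lowest, 4.37 at the median and 10.2 at the highest in the BCAA-free 5+3 mice, and 18.4, 19.8, 15.4 and 24.1 CPM in the AA 5+3 mice. Under 5+3 the diets did not overlap, and BCAA-free vehicle replicate 4 (5.80 CPM) lay inside the treated range. Nlrc5 mRNA fell after chemotherapy on the BCAA-free diet (log2 change -1.78 ± 0.44 SE, adjusted p = 0.0209), a call lost without BCAA-free vehicle replicate 2 or 5 (adjusted p = 0.0503 and 0.0502). Between the diets under 5+3 it was just outside the threshold (log2 change -1.80 ± 0.46 SE, adjusted p = 0.0542), and it was inside with DESeq2 (-1.82, adjusted p = 0.00537).

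Counted by mice alone, 7 of the 10 genes had every BCAA-free 5+3 mouse below every AA 5+3 mouse in footprints, as did 10.2% of all genes tested. They were H2-K1, H2-D1, B2m, Tap1, Tapbp, Psmb9 and Nlrc5. Against the BCAA-free vehicle mice 3 did so (B2m, Tapbp and Psmb9), as did 4.74% of all genes. In mRNA the counts were 3 (H2-K1, Psmb9 and Nlrc5), beside 2.65%, and 3 (H2-K1, Psmb9 and Psmb10), beside 1.22%.

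Without the 4 mice that stood apart in mRNA, 2 of the 10 genes passed in footprints for chemotherapy on the BCAA-free diet, H2-D1 (-1.30, adjusted p = 0.0393) and B2m (-1.27, adjusted p = 0.0494). Short of the threshold were Nlrc5 at -1.28, H2-K1 at -1.35 (adjusted p = 0.0532), Psmb9 at -1.08, Tapbp at -0.71, Tap1 at -0.84, Psmb10 at -0.59 and Psmb8 at -0.47. In mRNA none of the 10 passed in edgeR for that comparison (H2-K1 -1.32, Tap1 -0.86, Psmb9 -1.10, Psmb10 -0.77 and Nlrc5 -1.45, adjusted p of 0.204 or more). Calls over all genes went down as well, from 3242 to 395 in footprints and from 1807 to 19 in mRNA. For the diets under 5+3, where 1 of the compared mice was left out, 7 genes passed in footprints (Psmb10 did not, adjusted p = 0.0512). In mRNA 4 passed: H2-K1 (-1.39), B2m (-1.56), Psmb9 (-1.27) and Nlrc5 (-1.87).

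On the AA diet chemotherapy called none of the 10 genes with edgeR in either kind of library, where 6.61% of genes were called in footprints and 0.0616% in mRNA. In footprints the changes ran from -0.35 (B2m) to -0.03 (Psmb9), with 0 of 10 under an unadjusted p of 0.05 and 0 by DESeq2 or limma-voom. In mRNA they ran from -0.52 (Tap2) to 0.55 (B2m). Tap2 was the only gene of the 10 under an unadjusted p of 0.05 there, with every AA 5+3 mouse below every AA vehicle mouse (as for 2.32% of genes), and DESeq2 and limma-voom called 0. Between the diets in vehicle-treated mice edgeR likewise called 0 in footprints (2.04% of all genes) and 0 in mRNA (0%), and so did DESeq2 and limma-voom. Unadjusted p was under 0.05 for 0 in footprints and for 1 in mRNA, Tapbp (-0.54).

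The interaction asks whether chemotherapy changed a gene differently on the 2 diets. In footprints edgeR called 0 of the 10, where 7.09% of genes were called, although all 10 estimates were negative and 7 had an unadjusted p under 0.05. The estimates with the smallest adjusted p were Psmb9 (-1.06 ± 0.35 SE, adjusted p = 0.0687), H2-K1 (-1.22 ± 0.42 SE, adjusted p = 0.0858) and H2-D1 (-1.07 ± 0.37 SE, adjusted p = 0.0896). DESeq2 called H2-D1 and Psmb9, and limma-voom called these and H2-K1. Without the filter on low counts Tapbp passed. Without AA vehicle replicate 2 there were 5 calls (H2-K1, H2-D1, Psmb9, Tap1 and Tapbp), without BCAA-free 5+3 replicate 7 there were 2 (H2-K1 and H2-D1), and without BCAA-free 5+3 replicate 3 or BCAA-free vehicle replicate 2 there was 1 (Psmb9). In mRNA 0 were called by edgeR, DESeq2 and limma-voom (0.0758% of all genes by edgeR), and 4 had an unadjusted p under 0.05. A difference between diets in the response to chemotherapy was thus not shown for these genes by the test chosen.

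Translational efficiency, the change in footprints beyond that in mRNA of the same mice, called 0 of the 10 in all 5 comparisons with edgeR, and limma-voom also called 0. Unadjusted p was under 0.05 for 1 gene in each of the 2 comparisons of chemotherapy with vehicle and for 0 in the others. After chemotherapy on the BCAA-free diet, where 7.45% of genes were called, the estimates ran from -0.44 (B2m, adjusted p = 0.315) to 0.55 (Psmb10, adjusted p = 0.105), and Psmb10 alone had an unadjusted p under 0.05. Psmb8, whose footprints fell without a call in mRNA, had -0.41 ± 0.26 SE (adjusted p = 0.278). The median over the 10 was 0.08, beside -0.11 over all genes. Under 5+3 between the diets (0.00827% of genes called) the median was -0.20, beside 0.00, with no adjusted p under 0.77.

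Among the transcriptional regulators of class I genes, a list with activators and a few repressors, 12 of 20 fell in footprints after chemotherapy on the BCAA-free diet. Under 5+3, 10 of 20 were lower on that diet than on the AA diet, and none was higher in either comparison. Over all genes, 11.9% fell and 15.8% were lower. Irf1, an activator of class I genes, changed by -1.05 and -1.70. Stat2, part of the complex that binds the ISRE, was 2.00-fold and 2.51-fold lower. Nfya, the subunit of NF-Y that contacts CCAAT, changed by -0.68 and -0.82, and Irf2 by -1.24 after chemotherapy. Ezh2, which represses class I genes, was also lower (-0.46 and -0.56). Irf8 fell after chemotherapy on both diets (-1.78 on AA and -1.82 on BCAA-free). In mRNA 4 of the list fell after chemotherapy on the BCAA-free diet, among them Irf2 (-1.32), Nfya (-1.25) and Irf1 (-0.93), and Nfyc, another NF-Y subunit gene, rose (1.14). Between the diets under 5+3, 2 were lower in mRNA, among them Irf1 (-1.28). Over all genes, 4.23% fell and 0.682% were lower in mRNA. The median of the list in footprints was -0.45 and -0.32, and the medians over all genes are given above. Without the 4 mice apart, 3 of 20 fell in footprints after chemotherapy and 10 were lower between the diets, and in mRNA 0 fell by edgeR and 3 were lower. Calls over all genes for chemotherapy on that diet also went down without these mice, as given above.

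Of the interferon-stimulated genes, 32 of 34 were lower in footprints on the BCAA-free diet under 5+3 (15.8% of all genes), with a median of -1.34. They included Oas3 (-2.61), which senses double-stranded RNA, Ifit1 (-2.86) and Rtp4 (-2.53). After chemotherapy on the BCAA-free diet 15 of 34 fell (median -0.73), beside 11.9% of all genes. Among the 15 were Trim30a (-0.73) and Cmpk2 (-1.05), and 1 of the 34 fell without the 4 mice apart. In vehicle-treated mice 7 of 34 were lower on the BCAA-free diet, beside 1.4% of all genes. They included Ifit3 (-3.27), Ifit1 (-2.27), Herc6 (-1.11) and Oas1a (-0.91), and none of the 34 passed in edgeR without the 4 mice apart. In mRNA 5 of 37 fell after chemotherapy (4.23% of all genes) and 9 were lower between the diets (0.682%). They included Isg15 (-2.48 and -2.88) and Parp14 (-2.13 and -2.68), and without the 4 mice apart these counts were 1 and 15. Of the interferon receptors and kinases, Jak2 (-1.03 and -0.78) and Tyk2 (-0.47 and -0.70) were lower in footprints in both comparisons, and Ifngr1 was higher between the diets (0.49). After chemotherapy 3 of the 7 fell, and Jak2 alone did so without the 4 mice apart (-0.88, adjusted p = 0.0334).

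Of 11 loading partners outside the 10 genes, Tapbpl, a tapasin relative, alone fell in footprints after chemotherapy on the BCAA-free diet (log2 change -0.70 ± 0.19 SE, adjusted p = 0.0122). Over all genes 11.9% fell there, so 1 of 11 was near that share. On the BCAA-free diet under 5+3, where 15.8% of all genes were lower, 6 of 11 were lower. Among them were the chaperone genes Hspa5 (-0.97) and Calr (-0.38), the disulfide isomerase gene Pdia3 (-0.52) and the trimming peptidase gene Erap1 (-0.52). In mRNA Calr rose after chemotherapy (0.75) and Lnpep fell (-1.14). Of the 8 constitutive proteasome and activator genes, Psme1 and Psme2, which encode the interferon-inducible PA28 activator, fell in footprints after chemotherapy (-0.48 and -0.54) and were lower between the diets (-0.34 and -0.70), as was Psme4 between the diets (-0.37). In mRNA Psme3 rose after chemotherapy (1.69). Of 6 cytosolic peptidases, 3 were lower in footprints between the diets under 5+3 (Npepps -1.07, Lap3 -0.59 and Nrd1 -0.33). Of 4 genes tested from a list for recognition by immune cells, Ulbp1, a ligand of the NKG2D receptor, and Cd47 rose in footprints after chemotherapy (0.48 and 0.28). Both were also higher on the BCAA-free diet under 5+3 (0.39 and 0.26). Over all genes, 8.76% rose and 12.5% were higher. With the 4 mice apart left out, the footprint calls after chemotherapy of Tapbpl (-0.49, adjusted p = 0.319), Psme1 (-0.47, adjusted p = 0.0809), Psme2 (-0.52, adjusted p = 0.0927), Ulbp1 (0.39, adjusted p = 0.196) and Cd47 (0.28, adjusted p = 0.15) were lost, as were the mRNA calls of Calr, Lnpep and Psme3. Between the diets under 5+3, Ulbp1 was then at 0.35 (adjusted p = 0.0565) and Cd47 still passed, and Cd80, tested there only without these mice, was lower (adjusted p = 0.0235).

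Markers of mature neutrophils and erythroid cells were lower in the BCAA-free 5+3 mice, beside the class I genes, and some markers of other cell types fell after chemotherapy on that diet. The 10 mature neutrophil markers summed to 858.8 to 1423 CPM of footprints in the BCAA-free vehicle mice, 704.2 to 2142 in the AA 5+3 mice and 113.3 to 1190 (median 238.1) in the BCAA-free 5+3 mice. The 8 erythroid markers, in the same 3 groups, summed to 112.5 to 215.4, 94.9 to 152.2 and 7.36 to 25.8 CPM. In mRNA all 10 neutrophil markers and 6 of 8 erythroid markers fell after chemotherapy on the BCAA-free diet, beside 4.23% of all genes. The 10 monocyte and macrophage markers summed to 275.9 to 438.6, 194.9 to 244 and 162.6 to 441.7 CPM of footprints. Of the 9 tested, 5 fell after chemotherapy on the BCAA-free diet, beside 11.9% of all genes. In the AA vehicle mice this sum was 335.3 to 779.8 CPM of footprints, above the AA 5+3 mice without overlap. In mRNA the sums on the AA diet were 675.3 to 1168 CPM in vehicle and 248.5 to 424.8 CPM in 5+3. The 7 B and plasma cell markers summed to 14.8 to 22.5, 6.65 to 9.38 and 7.46 to 13.9 CPM of footprints, so the treated BCAA-free mice lay below their vehicle mice without overlap. In mRNA these sums were 47 to 72.9, 23.5 to 44.6 and 52.6 to 106.8 CPM. There the treated BCAA-free mice overlapped their vehicle mice and lay above the AA 5+3 mice. In footprints the AA vehicle mice were at 9.49 to 13.6 CPM for this sum, above the AA 5+3 mice without overlap. The neutrophil, erythroid, T and NK cell and dendritic cell sums of footprints overlapped between vehicle and 5+3 on the AA diet. The 10 T and NK cell markers summed to 7.07 to 11.1, 5.99 to 8.05 and 3.10 to 7.20 CPM of footprints. In mRNA they summed to 57.3 to 126.3, 50.8 to 137.2 and 30.5 to 88.95 CPM, which overlapped. The 7 dendritic cell markers overlapped in footprints (31.1 to 43.4, 27.8 to 38.4 and 21.1 to 53.8 CPM), and in mRNA they were at 187.5 to 231.8 CPM in the BCAA-free vehicle mice and 77.6 to 177.8 CPM in the BCAA-free 5+3 mice, without overlap. Of the dendritic cell markers, Clec9a had 0 footprint counts in every BCAA-free vehicle and every BCAA-free 5+3 mouse, and Xcr1 in every BCAA-free vehicle mouse. BCAA-free 5+3 replicate 3 had the highest neutrophil sum of its group, 1190 CPM, with an erythroid sum of 25.7 CPM. In that mouse Psmb9 (33.2 CPM) and Tapbp (93.5 CPM) footprints were the highest of the group, and H2-D1 (368.8 CPM) and B2m (456.9 CPM) were second to replicate 7. Those 4 levels and H2-K1 (288.4 CPM) were below every AA 5+3 and every BCAA-free vehicle mouse, while Tap1 (75.7 CPM) was above the lowest vehicle mouse (63.0 CPM) and Psmb8 (159.6 CPM) above the lowest AA 5+3 mouse (139.7 CPM). The part of these markers in the class I values was not tested.

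AA vehicle replicate 2 had the highest footprint level of all 21 mice for each of the 10 genes, and AA 5+3 replicate 3 the lowest of its group for each. BCAA-free vehicle replicate 4 was lowest in its group for 8 of the 10 and replicate 5 highest for 8. In the BCAA-free 5+3 group replicate 7 was highest for 7, and replicate 1 was the lowest of all 21 mice for 6. The same mice were thus high or low for most of the 10 genes in footprints. After removing group means, the Pearson correlation of 2 of the genes over 21 mice had a median of 0.822 in footprints (0.427 to 0.983 over 45 pairs) and 0.484 in mRNA (-0.556 to 0.937). Against the mean of the other 9, Tap1 had the highest correlation in footprints (0.954) and Nlrc5 the lowest (0.767). In mRNA H2-K1 was at 0.949 and Tap2 at -0.15. The mice share library and depth across genes, and the values describe these 21 mice.

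Genes outside the set were ranked by the same correlation with the mean of the 10. In footprints the closest of 6079 genes were Lgals3bp (0.976), H2-Bl (0.965), H2-Q10 (0.963), H2-Q6 (0.959), H2-K2 (0.958), H2-Q1 (0.956), H2-T22 (0.954) and H2-Q4 (0.947), and the heavy chain genes among them can share reads with H2-K1 and H2-D1. In mRNA the closest of 8417 were Serpina3f (0.942), Iigp1 (0.924), Ube2l6 (0.904), Il18bp (0.904), Zbp1 (0.902), Tgtp2 (0.872), H2-T22 (0.853) and Gbp2 (0.853). H2-T22 was the only gene in both lists.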

How the data were processed

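Both tables, mRNA and footprints, were deposited by the authors as raw gene counts, as their whole-number values show. Tools named in the submitters' processing notes are Bowtie2, cutadapt, featureCounts, SAMtools and STAR, with the builds GRCm38 and mm10. For versions and strand setting the sources used here give nothing, so reads of overlapping or antisense genes cannot be told apart. Symbols matched 55141 of 55487 identifiers.

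The count tests were made with edgeR 4.0.16 in R 4.3.3: filterByExpr (minimum count 10, minimum total 15), TMM, and the robust quasi-likelihood test with all 4 groups in 1 fit per kind of library, on 21114 genes in mRNA and 15723 in footprints. CPM are TMM-scaled. Translational efficiency was the interaction of library kind with group over 42 libraries, with the mouse as a block, on 12097 genes. P-values were adjusted over all genes tested (Benjamini-Hochberg, threshold 0.05). Where the labels do not say how mice were batched, p-values measure the spread between these mice. Same-group libraries were compared in 47 pairs per kind, and each pair differed beyond sampling noise. Ratios of catalytic subunits used counts plus 0.5 and exact permutation over mice. Of 21 mRNA libraries, 16 correlated best with the footprint library of their own mouse among those of its group (median r = 0.153). The labels' replicate numbers name different mice in different groups, so the main fits had no replicate block for them. The test was checked on simulated counts.

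The genes, the lists and the tests were chosen with earlier results of these data known. Named were the 10 genes, up to 4 genes per list with the smallest adjusted p past the threshold in a comparison, the constitutive counterparts, and the 8 genes most like the 10 in each kind (mean of at least 10 CPM). H2-M3, H2-Q7, Ezh2, Nfyc, Creb1 and the markers were named outside this rule, after their values or promoters were seen. Some genes that the rule names are not reported here. Alternatives were median-ratio scaling, no filter, DESeq2 1.42.0, limma-voom (limma 3.58.1), the compared groups alone, a replicate block, class I heavy chains summed, another pseudocount, each mouse left out and, chosen after seeing the data, the 4 mice apart in mRNA left out.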

Additional observations from a re-analysis of the deposited data

Results flagged for a closer look

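In 3 of 80 groups of values (10 genes, 2 kinds of library, 4 groups), 1 mouse stood apart from the rest by Dixon's criterion, and chance gives about 1 in 20. Psmb9 mRNA in AA 5+3 replicate 4 was 616.8 CPM with the nearest mouse at 326.3 CPM. Nlrc5 mRNA in AA vehicle replicate 2 was 60.5 CPM with the nearest at 22.6 CPM. B2m mRNA in BCAA-free 5+3 replicate 7 was 1705 CPM with the nearest at 1021 CPM.

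The response to chemotherapy in footprints differed between the diets, by the interaction in edgeR, for 12 of the 106 pathway list genes tested (11.3%, beside 7.09% of all genes) and for the class II gene H2-Eb1, whose interaction was -1.53 (0.59 on the AA diet and -0.94 on the BCAA-free diet). The endoplasmic reticulum genes Hspa5 (interaction -1.18), Pdia3 (-0.51) and Sec61a1 (-0.43), and the peptidase gene Npepps (-0.86), rose on the AA diet (0.86, 0.46, 0.41 and 0.54) and did not pass on the BCAA-free diet (-0.33, -0.05, -0.01 and -0.32). The regulators Stat2 (-1.24), Irf1 (-1.28), Irf2 (-0.89), Nfya (-0.70) and Creb1 (-0.72) fell on the BCAA-free diet (2.00-fold lower for Stat2, and log2 changes of -1.05, -1.24, -0.68 and -0.44) and did not pass on the AA diet (0.23, 0.23, -0.35, 0.02 and 0.28). The interferon-stimulated genes Parp9 (-1.06) and Cmpk2 (-1.17) and the heavy chain gene H2-T24 (-1.11) also fell on the BCAA-free diet (-0.76, -1.05 and -1.16) and did not pass on the AA diet (0.30, 0.12 and -0.05). Without the 4 mice that stood apart in mRNA, 1 of the 12 still passed, Hspa5 (-1.08, adjusted p = 0.0319), and H2-Eb1 did not (-1.65, adjusted p = 0.0711).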

How the results depend on the processing

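Of 2840 refitted values of the 10 genes, 134 changed sign, and 0 of these were called in either fit. Of 452 refits of values that had passed, 391 still passed. In footprints, genes called for chemotherapy on the BCAA-free diet were 9 as reported, 7 to 10 with each mouse left out and 2 without the 4 mice apart, and between the diets under 5+3 they were 8, 7 to 8 and 7. For the interaction in footprints, 0 became 2 with DESeq2, 3 with limma-voom, 1 without the filter on low counts and 0 to 5 with each mouse left out. In mRNA, 5 called for chemotherapy on the BCAA-free diet became 4 to 5 with each mouse left out and 0 without the 4 mice apart. The 2 called between the diets under 5+3 became 5 with DESeq2, 4 without the 4 mice apart and 0 to 3 with each mouse left out. With the replicate number as a block, genes called were 8 and 7 in footprints and 5 and 0 in mRNA for these 2 comparisons. Same-numbered mice of different groups deviated together (r over 0.1) in 10 of 27 pairs in mRNA and 6 of 27 in footprints, so the numbers were not taken to pair mice. In translational efficiency, where the mouse was the block, the count stayed at 0 without that block. Of the catalytic ratios, 9 passed as reported, 5 to 10 with each mouse left out, and 0 without the 4 mice apart. The causes were not tested. With 2 or 3 mice in a group the smallest p these permutations can give is higher. All ratio p-values were also adjusted together, so a call can be lost though its own groups lose no mouse. Footprint depth limits Nlrc5 most, at 2 to 30 counts in the BCAA-free 5+3 libraries.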

Other observations

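MHC class II genes, which present peptides from outside the cell, gave values beside the class I genes in the same libraries. In footprints after chemotherapy on the BCAA-free diet, the class II chains H2-Aa (log2 change -0.98 ± 0.28 SE, adjusted p = 0.0173) and H2-Eb1 (log2 change -0.94 ± 0.23 SE, adjusted p = 0.0056) and the peptide exchange factors H2-DMa (-0.39) and H2-DMb1 (-0.41) fell. None of these 4 passed in edgeR without the 4 mice that stood apart in mRNA (H2-Aa -0.87, H2-Eb1 -1.07, H2-DMa -0.45 and H2-DMb1 -0.34, adjusted p of 0.0689 or more). Cd74, the invariant chain, had a log2 change of -0.55 (adjusted p = 0.0509) and H2-Ab1 of -0.46 (adjusted p = 0.203). For the diets under 5+3, H2-Eb1 had a log2 change of -0.65 (adjusted p = 0.0546), H2-Aa of -0.39, H2-Ab1 of -0.37, Cd74 of -0.23, H2-DMa of 0.31 and H2-DMb1 of 0.15, all short of the threshold in edgeR. The summed class II markers were 63.2 to 73.6 CPM of footprints in AA 5+3 and 48.9 to 92.9 CPM in BCAA-free 5+3. These ranges overlapped, as did those of Tap2, Psmb8 and Psmb10, while those of the other 7 class I genes did not. After chemotherapy on the BCAA-free diet the class II sums were 92.6 to 115 CPM in vehicle and 48.9 to 92.9 CPM in treated mice, so that 1 treated mouse reached the vehicle range. The same held for H2-K1 (treated up to 429.6 CPM, vehicle from 423.2 CPM) and H2-D1 (treated up to 471.7 CPM, vehicle from 463.3 CPM). The difference between class I and class II was not tested.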
